A study of Mus musculus with 12 samples.

Results

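The comparison set 3 spaceflown mice (M11, M12 and M20) against 3 ground control mice (M02, M03 and M08), each taken as 1 value per gene averaged over the gastrocnemius and the quadriceps. All 12 of the 12 RNA-seq libraries of the series entered it, 2 from each of 6 animals. The mice were female, 30 weeks old at the start. Flight mice lived on the International Space Station for 9 weeks, and ground mice stayed at the Kennedy Space Center for the same 9 weeks in identical hardware. Both groups had received subcutaneous phosphate-buffered saline, the control arm of an osteoporosis study. On strain the sources differ, with BALB/c in the study's methods and C57BL/6 on the samples. The muscles came from the left hind limb of carcasses that were frozen after the right hind limb had been taken, and thawed on ice. Flight and the handling that went with it on the station cannot be told apart.

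The gastrocnemius extends the ankle and the quadriceps extends the knee, and both are mostly fast-twitch muscles in mice. Slow-twitch fibers carry their own isoforms of myosin, troponin and calcium pump, are rich in mitochondria and burn fatty acids, whereas fast-twitch fibers draw more on glycolysis. Loss of load is known to shrink muscle and to shift fibers from slow-twitch toward fast-twitch. A change seen on the mean of both muscles asks what is common to the ankle extensor and the knee extensor of the same animal.

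Expression was read as TPM, a unit scaled for transcript length, which expresses each gene as a share of its own library and holds no counting depth. The 12 libraries listed 18172 to 21265 genes above 0, with the lowest number in the quadriceps of ground mouse M08, and their listed values summed to 923295 to 966638. The labelled tissue matched its markers, as all 10 skeletal muscle fiber markers were kept in the test and together held 71823 to 77293 TPM per animal. Among them, Acta1, the actin of skeletal muscle, was at 19206 ± 1340 TPM on the ground and 17497 ± 322 TPM in flight (SD, n = 3 each), and Ckm, muscle creatine kinase, was at 15056 ± 688 and 14599 ± 739 TPM. Throughout, the level of an animal is its mean log2(TPM + 1) over both muscles turned back to TPM, and a log2 fold change is flight minus ground on the log2(TPM + 1) scale.

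Of 10481 genes tested, 13 (0.124%) were called, 8 (0.0763%) higher in flight and 5 (0.0477%) lower, by limma with Benjamini-Hochberg adjustment (adjusted p under 0.05, over 1.5-fold). The genes lower in flight were the ribosomal protein gene Rpl24, the fatty acid oxidation genes Acaa2 and Fabp3, the ATP synthase gene Atp5g2 and the lipid synthesis gene Agpat2. Those higher in flight were Mid1, Gm17571, Gm21798 and 5 processed pseudogenes, Gm4149, Gm5537, Gm7329, Gm11966 and Rpl31-ps8. In all 13 the animal means of the 3 flight and 3 ground mice did not overlap, and in all 13 the sign was the same in both muscles. The sign was also the same in 67.4% of all genes tested, and in 1852 of 1887 genes at an unadjusted p under 0.05 by limma. A shared sign therefore does not set the calls apart. The smallest adjusted p was 0.0124, and the median log2 fold change over all genes tested was 0.02. An unadjusted p under 0.05 was reached by 9.94% of genes on the higher side and by 8.06% on the lower side, and animal means did not overlap in 13.7% of genes with flight above ground and in 10.7% with flight below ground. Counts for the gene lists below are to be read against these shares. Members of the lists, other than cell type markers, were mostly named for a small p. Lack of overlap in them is therefore no separate evidence.

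The number called depended on single animals. The p-values here rest on the spread among these 6 mice, moderated by limma toward that of other genes of similar level (4 residual and 3.986 prior degrees of freedom). No gene was called without ground mouse M02, flight mouse M12 or flight mouse M20 (1435, 1545 and 1118 genes at an unadjusted p under 0.05 by limma), 1 without ground mouse M03, 7 without ground mouse M08 and 134 without flight mouse M11. The 1 gene called without M03 was not among the 13. The 7 called without M08 held 4 of the 13, and the 134 called without M11 held all 13. With the 12 libraries kept apart and the animal as a replicate block, 73 genes were called, 36 of them higher and 37 lower, and they included 11 of the 13. Rescaling each library without the mitochondrial genome gave 30 calls, of which 22 were higher and 8 lower, against 8 and 5 without that rescaling. The flight effect differed between the muscles at an adjusted p under 0.05 for 0 genes by limma (536 at an unadjusted p under 0.05, smallest adjusted p 0.597).

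**Figure D1:**
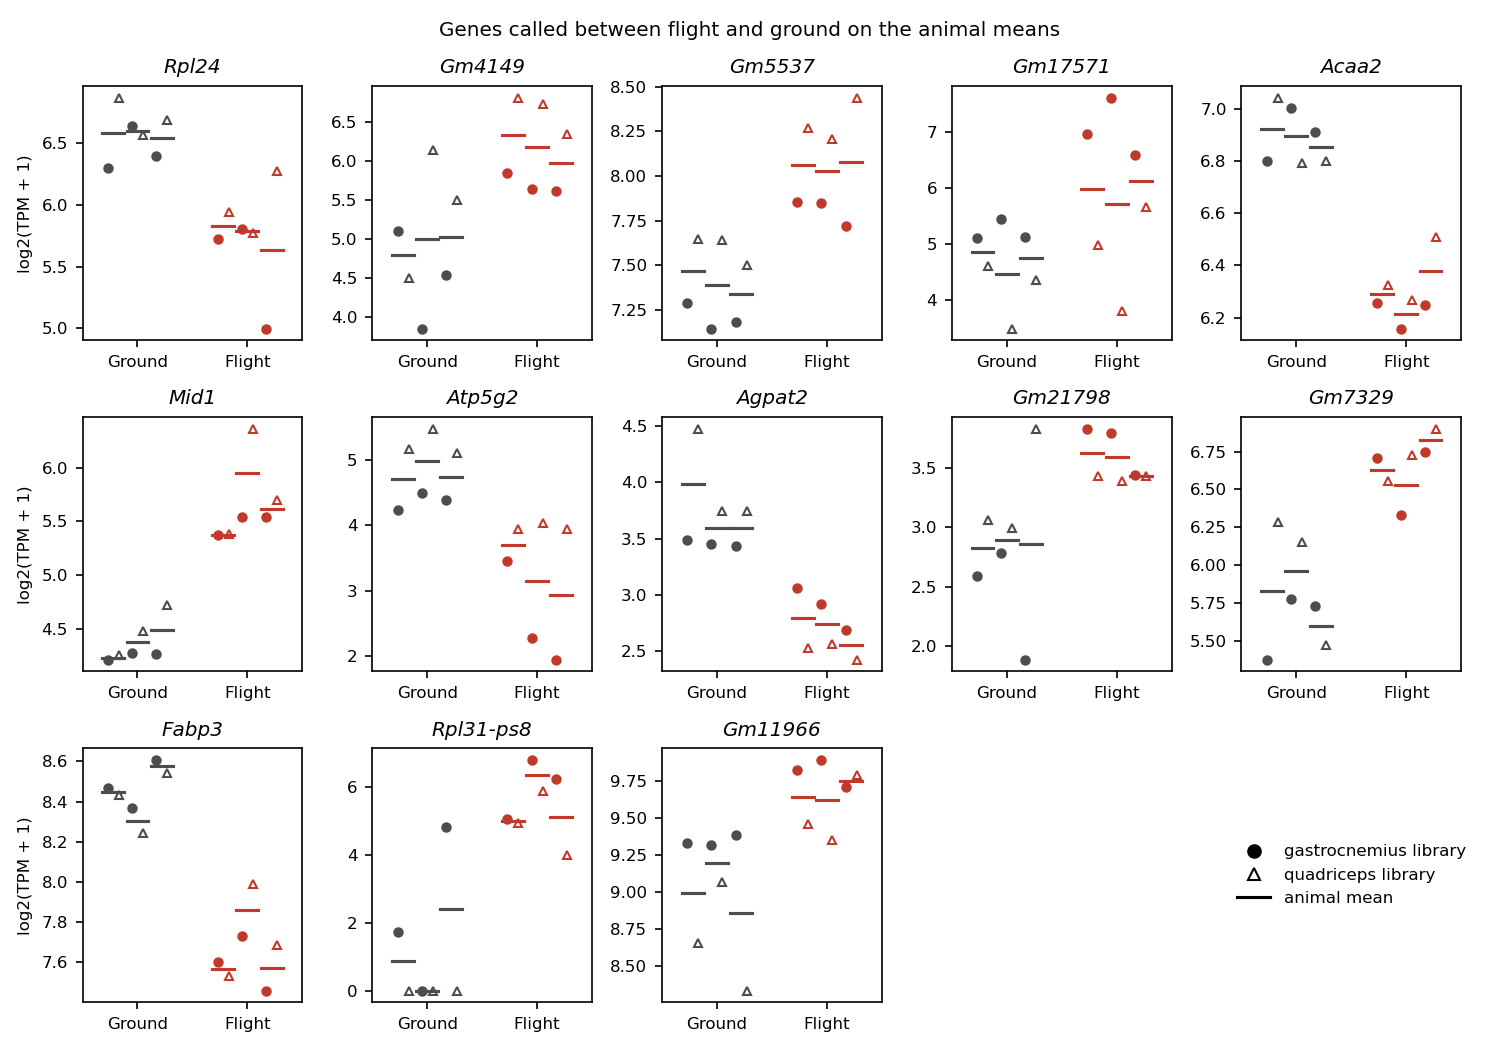
Log2(TPM + 1) of the 13 called genes in the 12 libraries, ground in grey and flight in red, with filled circles for gastrocnemius, open triangles for quadriceps and a bar for the mean of each animal. The bars of the 3 flight mice lie on one side of the 3 ground bars in every panel, while the quadriceps libraries of the groups overlap for Gm17571 and Gm21798.

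Of 31 fatty acid oxidation genes tested, 28 had a lower level in spaceflown mice and 3 a higher one. Of the 31, 2 were called lower and 0 higher, 21 had an unadjusted p under 0.05 on the lower side and 0 on the higher side, and the median log2 fold change was -0.26 against 0.02 over all genes. The 3 on the higher side, named after their values were seen, were Ucp3, Acot13 and Eci2 at log2 fold changes of 0.35, 0.04 and 0.03, none at an unadjusted p under 0.05. Fabp3, the heart and muscle fatty acid binding protein that carries fatty acids through the cytosol, was at 349, 315 and 381 TPM in ground mice and at 189, 231 and 189 TPM in flight mice. The highest flight mouse was below the lowest ground mouse. Fabp3 fell by 0.78 on the log2 scale (SE 0.10, adjusted p = 0.0457). Because 50.1% of its 31-base words also occur in other genes, Fabp3 was also summed with its pseudogene Fabp3-ps1, and the sum was lower by a log2 fold change of -0.76 (SE 0.10). Fabp3-ps1 holds 35.2% of the 31-base words of Fabp3 and was at only 0.234 to 4.63 TPM per animal. The sum therefore had to lie near Fabp3 itself and does not settle its level.

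Acaa2, the mitochondrial thiolase that cuts acetyl-CoA from shortened fatty acids, was at 120, 118 and 115 TPM in ground mice and 77.3, 73.1 and 82.3 TPM in flight mice. All 3 flight animals were well below the ground animals, and the spread within each group was small. Acaa2 fell by 0.60 on the log2 scale (SE 0.07, adjusted p = 0.0335), and none of its 31-base words occurs in another gene. Ech1, an enoyl-CoA isomerase for unsaturated fatty acids, passed the adjusted p but not the fold, at 251 ± 14.3 TPM on the ground and 178 ± 6.92 TPM in flight (SD, n = 3 each), a log2 fold change of -0.49 (adjusted p = 0.0457).

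The next members in order of p were Acsl1, which activates long-chain fatty acids, at a log2 fold change of -0.40, and Hadhb, the beta subunit of the trifunctional protein, at -0.45 (adjusted p = 0.0569 for both). Neither overlapped between the groups of animals. Acsl1 was at 138, 133 and 151 TPM in ground mice and at 106, 106 and 106 TPM in flight mice. Hadhb shares 23.7% of its 31-base words with other genes, which leaves its own level uncertain.

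Genes for the use of ketone bodies and lactate stood on the same side, though 0 were called. All 9 tested were lower, 4 at an unadjusted p under 0.05, with a median log2 fold change of -0.16. Bdh1, which makes acetoacetate from beta-hydroxybutyrate, was at 10.1, 5.64 and 7.15 TPM in ground mice and 3.28, 1.94 and 2.02 TPM in flight mice. Its groups did not overlap, at -1.33 on the log2 scale (SE 0.22, adjusted p = 0.0621). Ldhb, the lactate dehydrogenase subunit of oxidative tissue, had a log2 fold change of -0.43 (adjusted p = 0.0504), and Slc16a1, a lactate and ketone transporter, one of -0.44 (adjusted p = 0.0729). Ldhb shares 33.0% of its 31-base words with other genes and is uncertain. It was at -0.65 in the gastrocnemius and -0.21 in the quadriceps (unadjusted p = 0.0245, adjusted p = 0.959 for the difference by limma).

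Slow-twitch sarcomere genes had the lowest median of the muscle lists, -0.37 on the log2 scale over 19 genes, with 0 called. On the lower side 11 of the 19 had an unadjusted p under 0.05 and on the higher side 0, and in 10 of 19 the animal means did not overlap, flight below ground. Over all genes tested, the shares were 8.06% at that p on the lower side and 10.7% without overlap, flight below ground. As 8 of the 19 were picked by the study from these very libraries, the counts are not independent evidence of the direction. The list held 0.358% to 0.463% of the listed TPM in ground gastrocnemius and 0.2502% to 0.281% in flight gastrocnemius, without overlap. In the quadriceps it held 0.241% to 0.381% on the ground and 0.248% to 0.311% in flight, with overlap, and the quadriceps of ground mouse M02 had the lowest share of all 12 libraries. In bulk tissue, fewer slow-twitch fibers and less RNA per fiber cannot be told apart. Myl2, the slow regulatory myosin light chain, was at 365, 498 and 500 TPM in ground mice and 286, 195 and 207 TPM in flight mice. The log2 fold change was -0.99 (SE 0.17, adjusted p = 0.0621).

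Myoz2, a calcineurin-binding protein of the slow-twitch Z-disc, was at 90.5, 85.9 and 93.9 TPM on the ground and 66.6, 51.8 and 56.5 TPM in flight, a log2 fold change of -0.63 (adjusted p = 0.0504). Myom3, an M-band protein, was at a log2 fold change of -0.68 (adjusted p = 0.0602) and Tnni1, slow troponin I, at -0.60 (adjusted p = 0.0824). Each of these genes had all 3 flight mice below all 3 ground mice. Myl12a, a non-sarcomeric regulatory light chain that the study grouped with them, was at -0.66 (adjusted p = 0.07003) and shares 22.9% of its 31-base words with other genes.

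The list was not uniform. The next 3 members were named after their values were seen. Myh7, the slow myosin heavy chain, was at 164, 258 and 261 TPM in ground mice and 225, 209 and 247 TPM in flight mice, so the groups overlapped, at a log2 fold change of 0.02 (SE 0.17), and without ground mouse M02 the value was -0.20. Tnnt1, slow troponin T, was at -0.10 (SE 0.16) and Tpm3, slow tropomyosin, at 0.14 (SE 0.15), with overlapping animals in both. Myh7 and Tpm3 share 27.9% and 27.0% of their 31-base words with other genes and are uncertain. The regulatory light chain and the heavy chain of slow myosin thus had different values in the same animals, a difference of gene against gene that was not tested.

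Fast-twitch sarcomere genes lay close to 0, with a median log2 fold change of 0.08 over 17 genes and 0 called. At an unadjusted p under 0.05, 6 were higher and 1 was lower. Tpm1, the fast alpha-tropomyosin, was at 13594, 14479.5 and 14308 TPM in ground mice and 16418, 16450.2 and 16729.6 TPM in flight mice. All 3 flight animals were higher, by 0.23 on the log2 scale (SE 0.04, adjusted p = 0.0709). Tnnt3 and Tnni2, fast troponins T and I, both had a log2 fold change of 0.16 (adjusted p = 0.109 and 0.175). Myh4, the fastest myosin heavy chain, had one of 0.19 (adjusted p = 0.136).

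On the lower side at that p was Myh2, the myosin heavy chain of oxidative fast fibers, at 1194, 1068 and 979 TPM in ground mice and 844, 834 and 849 TPM in flight mice. The log2 fold change of Myh2 was -0.35 (SE 0.07, adjusted p = 0.0800). Myh2 and Myh4 share 34.5% and 30.4% of their 31-base words with other genes, among them other myosin heavy chains, and their levels are uncertain. In the triad, where the nerve signal releases calcium, 3 of 21 genes were higher and 1 lower at an unadjusted p under 0.05, with a median of 0.01. Trdn, triadin, was at a log2 fold change of 0.28 (adjusted p = 0.0670) and Ryr1, the calcium release channel, at 0.16 (adjusted p = 0.177), both without overlap of the animals. Over all genes tested, 13.7% had no overlap with flight above ground.

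Among 33 genes of the Z-disc and costamere, the structures that anchor the sarcomere to its neighbours and to the membrane, 0 were called and the median was -0.03. Ankrd1, a stretch-responsive titin-binding protein, was at 7.81, 7.18 and 4.86 TPM in ground mice and 3.30, 3.34 and 2.40 TPM in flight mice, a log2 fold change of -0.91 (adjusted p = 0.0754). Fblim1, a filamin-binding protein, lay on the other side at 0.59 (adjusted p = 0.0663). By muscle, Fblim1 was at 0.94 in the gastrocnemius and 0.24 in the quadriceps (unadjusted p = 0.00131, adjusted p = 0.761 for the difference by limma). Dmd, dystrophin, was at 0.25 (adjusted p = 0.112).

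**Figure D2:**
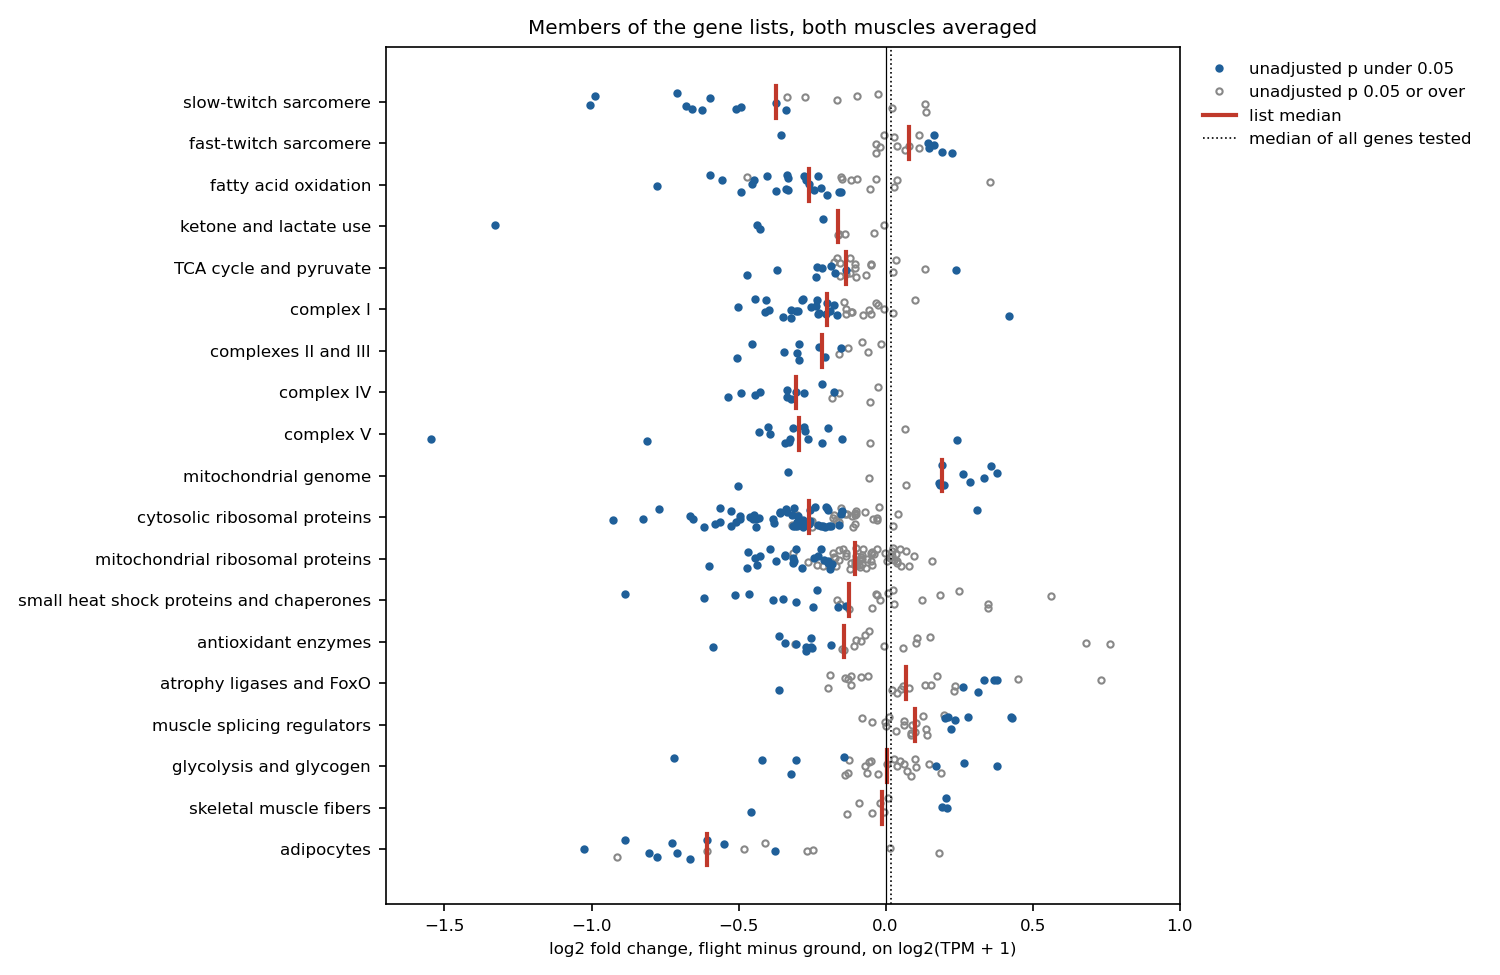
Log2 fold change of each tested member (points) of 19 gene lists, flight minus ground with both muscles averaged, with filled points for an unadjusted p under 0.05, a red bar for the list median and a dotted line for the median of all genes, 0.02. Members of slow-twitch, fatty acid oxidation, respiratory chain and ribosomal protein lists lie mostly left of 0, and those of the mitochondrial genome mostly right of it.

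The respiratory chain is built from subunits encoded in the nucleus and 13 proteins encoded in the mitochondrial genome, and the 2 sets stood on opposite sides. Of 83 nuclear-encoded subunits of complexes I to V tested, 78 were lower in flight, 57 at an unadjusted p under 0.05, against 2 higher at that p, and the median log2 fold change was -0.23. Only Atp5g2 was called. The nuclear subunits together held 2.41% to 2.55% of the listed TPM in ground gastrocnemius and 1.93% to 2.28% in flight gastrocnemius, and 2.76% to 3.02% and 2.23% to 2.56% in the quadriceps. In both muscles the 3 flight libraries were below the 3 ground libraries.

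By complex, the median log2 fold change was -0.20 for the 36 subunits of complex I, -0.22 for 14 of complexes II and III, -0.30 for 15 of complex IV and -0.30 for 18 of complex V. At an unadjusted p under 0.05 these held 22, 9, 11 and 15 genes on the lower side and 1, 0, 0 and 1 on the higher side. Atp5g2, a gene for the membrane ring subunit c of ATP synthase, was at 25.1, 30.7 and 25.8 TPM in ground mice and 12.03, 7.91 and 6.67 TPM in flight mice. It fell by 1.55 on the log2 scale (SE 0.18, adjusted p = 0.0457), the largest decrease among the 13 called genes. As 40.2% of its 31-base words occur in other genes, it was summed with its copy Gm10175, and the sum had a log2 fold change of -0.43 (SE 0.11).

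Atp5l, subunit g of ATP synthase, was at 610, 635 and 586 TPM in ground mice and 441, 298 and 319 TPM in flight mice, a log2 fold change of -0.81 (adjusted p = 0.0602). By muscle, Atp5l was at -1.05 in the gastrocnemius and -0.57 in the quadriceps (unadjusted p = 0.0296, adjusted p = 0.961 for the difference by limma). Atp5b, the catalytic beta subunit, was at -0.34 (adjusted p = 0.07003). In complex IV, Cox5a and Cox7a2 were at -0.49 and -0.54 (adjusted p = 0.0754 for both). In complexes II and III, the Rieske iron-sulfur protein gene Uqcrfs1 was at -0.51 and the succinate dehydrogenase anchor Sdhd at -0.46 (adjusted p = 0.0692 and 0.07003). The animals did not overlap for any of these 6 genes.

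Complex I held members on both sides. Ndufab1, the acyl carrier protein of complex I, was at a log2 fold change of -0.41 (adjusted p = 0.0816) and Ndufb6 at -0.50 (adjusted p = 0.0800). Ndufa12 was higher in flight by 0.42 (adjusted p = 0.0754), at 27.1, 33.0 and 30.2 TPM in ground mice and 38.6, 41.5 and 41.3 TPM in flight mice. Ndufb6 and Ndufa12 share 34.4% and 20.7% of their 31-base words with other genes and are uncertain.

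In the TCA cycle and pyruvate list, 21 of 25 genes were lower, 8 of them at an unadjusted p under 0.05 against 1 higher, with a median of -0.13. Mpc2, a subunit of the carrier that brings pyruvate into mitochondria, was at 196, 191 and 202 TPM in ground mice and 154, 135 and 135 TPM in flight mice, a log2 fold change of -0.47 (adjusted p = 0.0504). Idh2, the NADP-dependent isocitrate dehydrogenase, was at -0.37 (adjusted p = 0.0504). By muscle, Idh2 was at -0.64 in the gastrocnemius and -0.10 in the quadriceps (unadjusted p = 0.0210, adjusted p = 0.959 for the difference by limma). Its quadriceps libraries overlapped between the groups. Suclg2, the GTP-forming succinyl-CoA ligase subunit, was on the higher side at 0.24 (adjusted p = 0.121), with 20.7% shared 31-base words.

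Of the 13 protein-coding genes of the mitochondrial genome, 10 were higher in flight and 3 lower, with 9 and 2 at an unadjusted p under 0.05 and a median log2 fold change of 0.19. mt-Atp8, a small ATP synthase subunit, was at 8206, 8243 and 8707 TPM in ground mice and 10588, 11336 and 10762 TPM in flight mice. It passed the adjusted p but not the fold, at 0.38 on the log2 scale (SE 0.05, adjusted p = 0.0457). The complex I subunits mt-Nd2, mt-Nd1 and mt-Nd6 were at 0.36, 0.34 and 0.29 (adjusted p = 0.0709, 0.0754 and 0.0845). mt-Nd4 was at 0.26 (adjusted p = 0.0982) and is uncertain, with 62.8% of its 31-base words in other genes.

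The 2 mitochondrial genes on the lower side at that p, named after their values were seen, were mt-Co2 and mt-Nd3, at -0.50 and -0.33, and they share 100% and 98.1% of their 31-base words with other genes. The whole mitochondrial genome held 16.7% to 19.1% of the listed TPM in ground gastrocnemius and 21.4% to 23.3% in flight gastrocnemius, where the libraries did not overlap. In the quadriceps it held 16.7% to 19.2% and 17.2% to 20.01%, where they did. TPM is a share, so a larger mitochondrial share leaves a smaller one for other genes. With each library rescaled without the mitochondrial genome, the median of all genes was 0.06, and the medians of complex I and complexes II and III were -0.16 and -0.17.

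**Figure D3:**
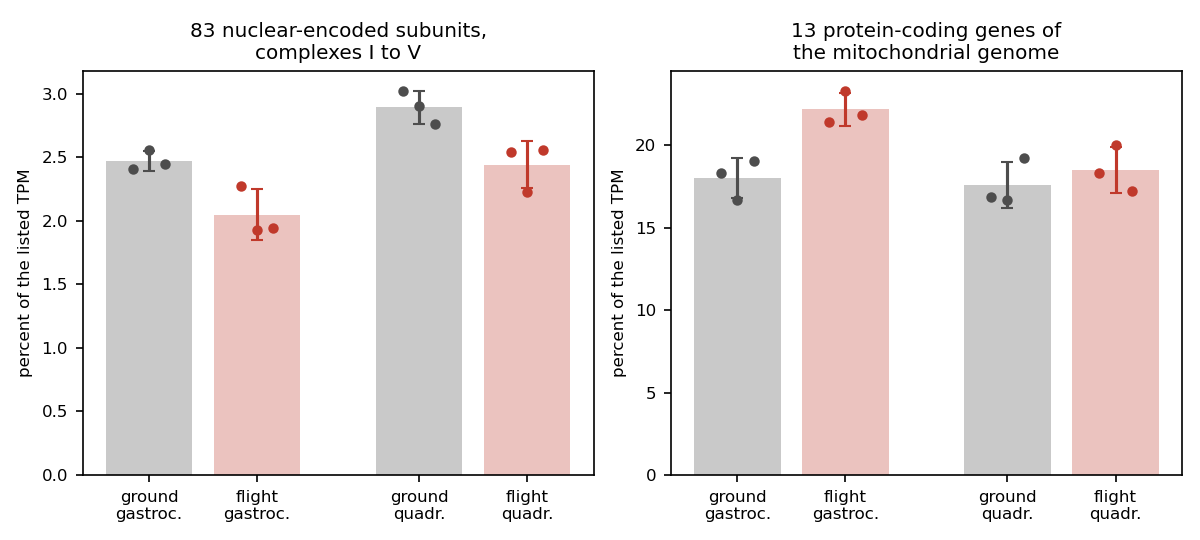
Percent of the listed TPM held by the 83 nuclear-encoded subunits of complexes I to V (left) and by the 13 protein-coding genes of the mitochondrial genome (right), by muscle and condition, with bars for the mean, error bars for the SD and a point for each of 3 libraries. The nuclear share was lower in flight in both muscles without overlap, and the mitochondrial share was higher without overlap in the gastrocnemius.

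Cytosolic ribosomal proteins, the protein part of the translation machinery, were lower in 76 of 79 genes tested. Of these, 53 had an unadjusted p under 0.05 against 1 on the higher side, 1 was called lower, and the median log2 fold change was -0.26. The 22 members with under 20% shared 31-base words were all lower, with a median of -0.31. Ribosomal protein genes held 1.47% to 1.61% of the listed TPM in ground gastrocnemius and 1.17% to 1.38% in flight, and 1.82% to 1.99% and 1.497% to 1.64% in the quadriceps. No flight library reached the ground range of its muscle.

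Rpl24, a protein of the large subunit at the interface of the ribosome, was at 95.1, 96.1 and 92.4 TPM in ground mice and 55.9, 54.4 and 48.7 TPM in flight mice. It fell by 0.83 on the log2 scale (SE 0.07) and had the smallest adjusted p of all genes, 0.0124. Since 52.7% of its 31-base words occur in other genes, it was summed with its copy Gm9385, and the sum had a log2 fold change of -0.38 (SE 0.06). Rpl9 and Rps18 passed the adjusted p but not the fold, at -0.53 and -0.49 (adjusted p = 0.0457 for both). Rpl9 was at 263 ± 7.36 TPM on the ground and 182 ± 10.9 TPM in flight, and Rps18 at 202 ± 4.87 and 143 ± 8.28 TPM (SD, n = 3 each).

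Rps15a was at 86.8, 88.6 and 79.4 TPM in ground mice and 61.6, 55.2 and 52.8 TPM in flight mice, a log2 fold change of -0.58 (adjusted p = 0.0504), and Rplp2, of the stalk that binds elongation factors, was at -0.43 (adjusted p = 0.0504). Rps18 and Rplp2 share 27.9% and 22.9% of their 31-base words with other genes and are uncertain. Mitochondrial ribosomal proteins, which translate the mitochondrial genome, had a median of -0.10, with 63 of 78 lower and 23 at an unadjusted p under 0.05 against 0 higher. Mrps24 was at -0.60 and Mrpl34 at -0.44 (adjusted p = 0.0709 and 0.0602).

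Promoters of ribosomal protein genes are known for binding sites of ETS factors such as GABP, whose core reads CTTCCGG. In the RefSeq windows of GRCm38.p6, 250 bases before to 50 bases after each start, 24 of the 58 ribosomal protein genes with an entry (41.4%) held this motif on either strand. The share was 9.93% over all 27025 genes with an entry, which are not limited to the genes tested here. The share among the genes tested was not computed. The motif was in 26 of 69 mitochondrial ribosomal protein genes (37.7%) and in 1 of 18 slow-twitch sarcomere genes (5.56%). Among other lists with medians below 0, the share was 11.5% for fatty acid oxidation, 12.5% for complex I, 44.4% for complexes II and III, 25% for complex IV and 37.5% for complex V. The windows of 2 members with the motif are given to show what these promoters look like, 5′ to 3′ on the strand of the gene, with the motif in capitals on either strand. The first is at chr17:33955616-33955915 on the minus strand and the second at chr7:141447401-141447700 on the plus strand.
Rps18: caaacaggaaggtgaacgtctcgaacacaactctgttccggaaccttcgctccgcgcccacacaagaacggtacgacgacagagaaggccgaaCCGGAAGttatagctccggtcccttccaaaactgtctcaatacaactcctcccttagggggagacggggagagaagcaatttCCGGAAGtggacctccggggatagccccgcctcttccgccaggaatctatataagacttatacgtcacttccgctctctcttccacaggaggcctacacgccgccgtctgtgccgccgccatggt
Rplp2: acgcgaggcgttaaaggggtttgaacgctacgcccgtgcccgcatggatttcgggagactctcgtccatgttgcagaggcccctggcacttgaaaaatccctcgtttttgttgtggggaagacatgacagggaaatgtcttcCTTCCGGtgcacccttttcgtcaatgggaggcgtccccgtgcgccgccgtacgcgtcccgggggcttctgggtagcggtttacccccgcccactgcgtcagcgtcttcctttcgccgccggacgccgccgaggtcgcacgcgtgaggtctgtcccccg
The motif starts 157 and 75 bases before the start of Rps18 and 108 bases before that of Rplp2. A match is a description of the sequence and no evidence of binding in these samples.

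All 5 processed pseudogenes among the calls are near-identical copies of a gene that muscle expresses strongly, so a short read cannot always be placed on one or the other by its sequence. Rpl31-ps8, at chr15:90764279-90764656, matches a transcript of Rpl31 over all 378 of its bases with 0 mismatches, and Gm5537, at chr3:58102996-58104247, matches one of Pgk1 over 1252 bases with 0 mismatches. Gm4149, at chr13:75644896-75645171, differs from Rpl37a at 1 of 276 bases, Gm7329, at chr1:65095227-65095436, from Me1 at 2 of 210, and Gm11966, at chr11:5818497-5818583, from Atp5j at 0 of 87. Coordinates are on GRCm38. Stretches of 60 bases of each copy and of the coding part of its parent are given below, 5′ to 3′, with mismatched bases in capitals.
Rpl31-ps8: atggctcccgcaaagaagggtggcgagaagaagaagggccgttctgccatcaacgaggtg
Rpl31: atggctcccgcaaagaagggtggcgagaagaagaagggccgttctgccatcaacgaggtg
Gm5537: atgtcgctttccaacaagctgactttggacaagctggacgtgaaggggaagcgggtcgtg
Pgk1: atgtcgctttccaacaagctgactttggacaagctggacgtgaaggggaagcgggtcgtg
Gm4149: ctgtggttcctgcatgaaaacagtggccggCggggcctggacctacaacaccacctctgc
Rpl37a: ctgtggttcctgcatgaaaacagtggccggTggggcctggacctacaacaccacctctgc
Gm7329: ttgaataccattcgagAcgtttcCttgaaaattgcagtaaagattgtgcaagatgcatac
Me1: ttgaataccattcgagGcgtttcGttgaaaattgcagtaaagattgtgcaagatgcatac
Gm11966: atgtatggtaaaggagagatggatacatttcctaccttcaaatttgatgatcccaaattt
Atp5j: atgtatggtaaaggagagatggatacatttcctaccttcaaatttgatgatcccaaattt

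Gm5537 was at 176, 167 and 161 TPM in ground mice and 266, 260 and 270 TPM in flight mice, and rose by 0.66 on the log2 scale (SE 0.06, adjusted p = 0.0124). Its parent Pgk1, the glycolytic phosphoglycerate kinase, was at 282, 309 and 302 TPM and at 231, 148 and 171 TPM, in the other direction. The sum of both overlapped between the groups, with a log2 fold change of -0.06 (95% confidence interval -0.23 to 0.12). Gm4149 rose by 1.22 (SE 0.11, adjusted p = 0.0124), from 26.8, 30.9 and 31.5 TPM to 79.2, 71.4 and 61.8 TPM, while Rpl37a, its parent in the large ribosomal subunit, had a log2 fold change of -0.65. Their sum was at -0.28 (95% confidence interval -0.51 to -0.04), with flight mouse M11 inside the ground range.

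Rpl31-ps8 was listed at 2.32, 2.5e-09 and 27.4 TPM in the gastrocnemius of ground mice M02, M03 and M08 and at 0, 0 and 9.7e-08 TPM in their quadriceps, and in flight mice M11, M12 and M20 at 32.7, 111 and 74.8 TPM in the gastrocnemius and 29.5, 58.5 and 14.97 TPM in the quadriceps. It had the largest log2 fold change of the calls, 4.40 (SE 0.59, adjusted p = 0.0457), a size that depends on the added 1 TPM because of the values at or near 0. Rpl31 was at 390, 421 and 383 TPM in ground mice and 381, 324 and 341 TPM in flight mice. The sum of the pair differed by 0.01 (95% confidence interval -0.12 to 0.14), and its animals overlapped.

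Gm7329 rose by 0.87 (SE 0.11) and Gm11966 by 0.66 (SE 0.09), with an adjusted p of 0.0457 for both. Gm7329 was at 55.8, 61.3 and 47.5 TPM in ground mice and 98.1, 91.6 and 112 TPM in flight mice, and Gm11966 at 508, 585 and 463 TPM and 798, 787 and 860 TPM. Their parents Me1, malic enzyme, and Atp5j, a coupling subunit of ATP synthase, were at log2 fold changes of -0.20 and -0.33. The sums were at 0.23 (95% confidence interval 0.05 to 0.41) and 0.20 (95% confidence interval 0.07 to 0.34). The sum of Gm11966 and Atp5j was higher in every flight mouse, at 1104, 1199 and 1097 TPM in ground mice and 1354, 1247 and 1317 TPM in flight mice. As TPM is scaled for length, a read counts for more on a copy of 87 or 210 bases than on its longer parent. A sum of TPM is therefore no count of the reads of a pair, and whether these 2 rises hold in reads was not tested. Over all calls, 10 of 13 had 20% or more of their 31-base words in other genes, against 18.1% of the genes tested.

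**Figure D4:**
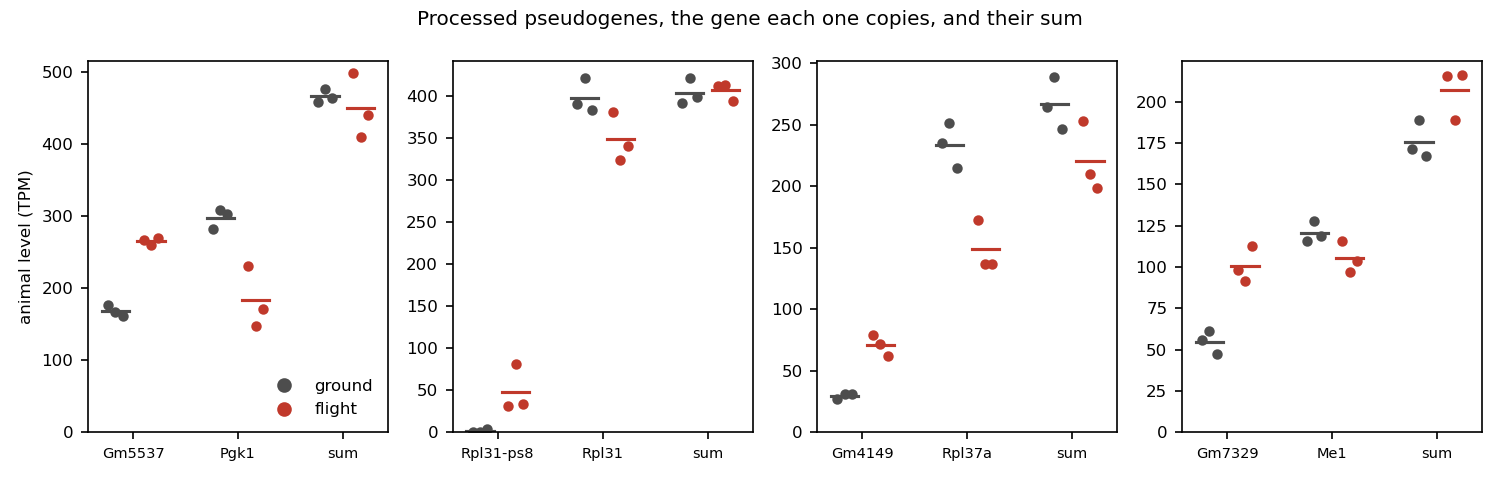
Animal levels in TPM (2 muscles averaged) of 4 called pseudogenes, of the gene each copies and of their sum, with a point for each of 3 ground (grey) and 3 flight (red) mice and a bar for the mean. The flight mean was above the ground mean for each copy and below it for each parent, and the sums overlap between the groups in all 4 panels. Gm11966 with Atp5j, whose sums did not overlap, is not drawn.

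With near-identical genes summed before the test, 6 genes or families were called, all of them among the 13 (Agpat2, Fabp3, Mid1, Acaa2, Gm17571 and Gm21798). Among genes with under 20% shared 31-base words alone, 2 of 8582 were called, Agpat2 and Acaa2. Both of these ways were chosen after the data were seen.

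Mid1, a ubiquitin ligase that binds microtubules, was higher in flight in both muscles. It was at 17.8, 19.7 and 21.5 TPM in ground mice and 40.6, 61.0 and 48.0 TPM in flight mice. Every flight animal was above every ground animal, and so was every flight library. Mid1 rose by 1.28 on the log2 scale (SE 0.14, adjusted p = 0.0335), and 31.1% of its 31-base words occur in other genes. It was called in 10 of 17 alternative settings.

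Gm17571, a predicted protein-coding gene at chr9:13444034-13446753, rose by 1.25 (SE 0.13, adjusted p = 0.0335), from 28.0, 21.2 and 25.96 TPM to 62.2, 51.6 and 69.0 TPM. It shares 52.4% of its 31-base words with other genes, 23.8% with Nav2. Nav2, a navigator protein of cell migration, was itself at 21.4, 20.4 and 17.8 TPM in ground mice and 32.1, 29.0 and 31.7 TPM in flight mice, a log2 fold change of 0.61 (adjusted p = 0.0504). Gm21798, a predicted gene at chr15:64817694-64937996, rose by 0.69 (SE 0.09, adjusted p = 0.0457), from 6.08, 6.41 and 6.25 TPM to 11.4, 11.05 and 9.81 TPM. Its quadriceps libraries overlapped between the groups, and the muscles differed by -1.14 in their log2 fold changes, quadriceps minus gastrocnemius (unadjusted p = 0.0298, adjusted p = 0.961 by limma). Ccdc50, a ubiquitin-binding adaptor, was at 51.5 ± 0.937 TPM on the ground and 69.4 ± 1.58 TPM in flight (SD, n = 3 each), a log2 fold change of 0.42 (adjusted p = 0.0504).

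Agpat2, an acyltransferase of phospholipid and triglyceride synthesis that is abundant in fat cells, was at 14.8, 11.1 and 11.05 TPM in ground mice and 5.93, 5.70 and 4.89 TPM in flight mice. It fell by 1.02 on the log2 scale (SE 0.13, adjusted p = 0.0457). The muscles differed by -0.91 in their log2 fold changes, quadriceps minus gastrocnemius (unadjusted p = 0.00302, adjusted p = 0.822 by limma), with log2 fold changes of -0.57 in the gastrocnemius and -1.48 in the quadriceps. Agpat2 is a member of the adipocyte marker list. Of its 18 tested genes, 16 were lower and 10 had an unadjusted p under 0.05 on that side against 0 on the other, with a median of -0.61.

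The adipocyte markers varied between ground mice. Their summed level was 1067, 862 and 553 TPM in ground mice M02, M03 and M08 and 531, 681 and 624 TPM in flight mice M11, M12 and M20, so that M08 was inside the flight range. Fabp4, the adipocyte fatty acid binding protein, was at 255.6, 196 and 182 TPM in ground mice and 151, 157 and 174 TPM in flight mice (log2 fold change -0.37, adjusted p = 0.188). By muscle, Fabp4 was at -0.04 in the gastrocnemius and -0.71 in the quadriceps. The muscles differed at an unadjusted p of 0.00975 (adjusted p = 0.822 by limma). Scd1, a fatty acid desaturase, was at 196, 175 and 51.0 TPM and 88.9, 89.4 and 61.7 TPM. Its log2 fold change was -0.07 in the gastrocnemius and -1.14 in the quadriceps (unadjusted p = 0.0588, adjusted p = 0.965 for the difference by limma). Of the markers, 10 had been chosen in the study on the same libraries, so their count is not independent evidence of the direction. Without ground mouse M02 the list's median was -0.37. The part of adipose tissue in the fall of Agpat2 and in the fatty acid oxidation list was not tested.

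Markers of other cell types gave 0 calls. Blood markers were at a median log2 fold change of -0.42 over 5 genes, all lower, with summed levels of 569 to 829.7 TPM in ground mice and 406 to 709 TPM in flight mice. Hba-a2 and Hbb-bs, globins of red cells, were at -0.25 and -0.42, with overlapping animals and with 92.6% and 54.4% shared 31-base words. The endothelial list had a median of -0.07 over 12 genes, with Pecam1 at -0.08. Medians were 0.09 over 8 macrophage genes, with Csf1r at 0.41 (adjusted p = 0.223), 0.16 over 9 Schwann cell genes, 0.10 over 6 tendon and fibroblast genes, with Dpt at 0.12, and 0.09 over 4 satellite cell genes, with Sdc4 at 0.19. Sdc4 was at -0.06 in the gastrocnemius and 0.43 in the quadriceps (unadjusted p = 0.0101, adjusted p = 0.822 for the difference by limma).

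Small heat shock proteins and chaperones had a median of -0.13 over 27 genes, with 11 at an unadjusted p under 0.05 on the lower side, 0 on the higher side and 0 called. The 15 members with under 20% shared 31-base words had a median of -0.03. Hspb7, a small heat shock protein of heart and muscle, was at 110, 73.9 and 80.6 TPM in ground mice and 55.3, 47.2 and 38.5 TPM in flight mice, a log2 fold change of -0.88 (adjusted p = 0.07003). Cryab, alphaB-crystallin, was at 700, 596 and 560 TPM and 379, 461 and 369 TPM, a log2 fold change of -0.62 (adjusted p = 0.0658). Chchd2, a protein of the mitochondrial intermembrane space, was at -0.51 (adjusted p = 0.0504) with 21.0% shared 31-base words. None of these 3 overlapped between the groups.

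Antioxidant enzymes had a median of -0.14, with 10 of 25 at an unadjusted p under 0.05 on the lower side and 0 on the higher side. Prdx2, a peroxiredoxin, was at 105, 97.9 and 103 TPM in ground mice and 80.1, 59.0 and 65.0 TPM in flight mice, a log2 fold change of -0.59 (adjusted p = 0.0672). Prdx6 was at -0.30 (adjusted p = 0.121).

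Among regulators of the oxidative program the median was -0.02 over 24 genes, with 3 higher and 3 lower at an unadjusted p under 0.05. Perm1, a muscle regulator that works with PGC-1 and estrogen-related receptors, was at 53.8, 50.2 and 55.1 TPM in ground mice and 42.8, 39.5 and 38.2 TPM in flight mice, a log2 fold change of -0.39 (adjusted p = 0.0672). Esrra, an estrogen-related receptor, was at -0.25 (adjusted p = 0.200). Sox6, a repressor of slow-twitch genes, was at 0.22 (adjusted p = 0.155), with all flight mice above all ground mice.

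Glycolysis and glycogen genes had a median of 0.00 over 27, with 3 higher and 5 lower at an unadjusted p under 0.05. Phkg1, the catalytic subunit of phosphorylase kinase, was at 329, 365 and 356 TPM in ground mice and 441, 450 and 476 TPM in flight mice, a log2 fold change of 0.38 (adjusted p = 0.0596). Gpd1, the cytosolic glycerol-3-phosphate dehydrogenase, was at 0.26 (adjusted p = 0.0967). Pgk1 was at -0.72 (adjusted p = 0.0752), and 54.7% of its 31-base words occur in other genes, Gm5537 above among them.

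Genes of muscle atrophy, the ubiquitin ligases and FoxO targets, had a median of 0.07 over 26, with 5 higher and 1 lower at an unadjusted p under 0.05 and 0 called. Trim63, the MuRF1 ligase, was at 136, 138 and 141 TPM in ground mice and 158, 190 and 196 TPM in flight mice, a log2 fold change of 0.38 (adjusted p = 0.0902). Foxo4 was at 0.26 and the mitochondrial ligase Mul1 at 0.32 (adjusted p = 0.139 and 0.163). Gabarapl1, an autophagy protein, was on the lower side at -0.36 (adjusted p = 0.0672) with 25.2% shared 31-base words. Proteasome subunits had a median of -0.04 over 31, with 5 lower and 0 higher at an unadjusted p under 0.05, and Psmb4 was at -0.45 (adjusted p = 0.0824).

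Growth control genes had a median of 0.04 over 23. Rps6kb1, the S6 kinase, was at 0.29 (adjusted p = 0.0902), Mstn, myostatin, at 0.24 (adjusted p = 0.213) and Smad7, an inhibitor of that pathway, at -0.37 (adjusted p = 0.184). Of 13 myogenic and denervation genes, 3 were higher and 1 lower at an unadjusted p under 0.05, with a median of 0.14. Myog, myogenin, was at 4.43, 4.07 and 2.75 TPM in ground mice and 4.65, 6.29 and 6.14 TPM in flight mice (log2 fold change 0.50, adjusted p = 0.205). It was at 0.19 in the gastrocnemius and 0.82 in the quadriceps (unadjusted p = 0.0181, adjusted p = 0.959 for the difference by limma). Chrne, a subunit of the adult acetylcholine receptor, was at 0.27, and Myh3, embryonic myosin, at -0.34 (adjusted p = 0.205 and 0.177).

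Clock genes had a median of 0.09 over 18, with 2 higher and 0 lower at an unadjusted p under 0.05. The 2 of 18 on the higher side are near the 9.94% of all genes tested there. They were Hlf and Rora, both transcription factors of the clock's output and loops, at 0.37 and 0.23 (adjusted p = 0.101 and 0.160). Glucocorticoid-responsive genes were at a median of 0.20 over 10, with a wide spread among animals, as flight mouse M11 was at -0.39 and flight mouse M12 at 0.64 relative to the ground mean. Without flight mouse M12 that median was -0.03. Errfi1 was at 36.3, 56.0 and 52.9 TPM in flight mice and 37.3, 36.6 and 37.0 TPM in ground mice (adjusted p = 0.261).

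Muscle splicing regulators had a median of 0.10 over 24, and 21 of them were higher. At an unadjusted p under 0.05, 7 were higher and 0 lower, and 0 were called. Rbfox2, which binds introns beside regulated exons, was at 57.4, 65.3 and 56.8 TPM in ground mice and 77.7, 76.7 and 87.9 TPM in flight mice, a log2 fold change of 0.43 (adjusted p = 0.0709). Its relative Rbfox1 was at 0.21 (adjusted p = 0.136), and Srsf3, a serine and arginine rich splicing factor, at 0.43 (adjusted p = 0.219). All 3 were without overlap of the animals, as were 13.7% of all genes tested, with flight above ground.

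Imprinted growth genes were at a median of 0.11 over 10. Peg3, a paternally expressed zinc finger protein, was at 7.72, 8.13 and 7.05 TPM in ground mice and 12.2, 15.2 and 18.3 TPM in flight mice, 0.90 higher on the log2 scale (SE 0.14, adjusted p = 0.0504). Cdkn1c, a cell cycle inhibitor, was at 0.53 (adjusted p = 0.112) with 27.2% shared 31-base words, and Grb10, an inhibitor of insulin signaling, at 0.21 (adjusted p = 0.210). H2afz, a histone variant, was at -0.83 (adjusted p = 0.0678) with 42.3% shared. By muscle, H2afz was at -1.01 in the gastrocnemius and -0.64 in the quadriceps (unadjusted p = 0.0253, adjusted p = 0.959 for the difference by limma). Medians were -0.07 over 13 histone variant genes, 0.00 over 32 extracellular matrix genes, with Col24a1 at 0.46 (adjusted p = 0.122), and -0.01 over 7 interferon-responsive genes, none of them at an unadjusted p under 0.05.

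The 3 flight animals were not alike. Relative to the ground mean, the median over the 83 nuclear respiratory chain subunits was -0.13 in M11, -0.33 in M12 and -0.25 in M20, against -0.04 to 0.02 in ground mice. For ribosomal proteins these values were -0.15, -0.34 and -0.27, and for slow-twitch sarcomere genes -0.36, -0.55 and -0.44. M11 was the flight mouse nearest the ground mean in each of the 3 lists, and it had the highest level of the flight mice in 66 of the 78 respiratory chain subunits and 59 of the 76 ribosomal protein genes that were lower in flight. Fatty acid oxidation genes did not show this order, with -0.24, -0.24 and -0.25 in the 3 mice.

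**Figure D5:**
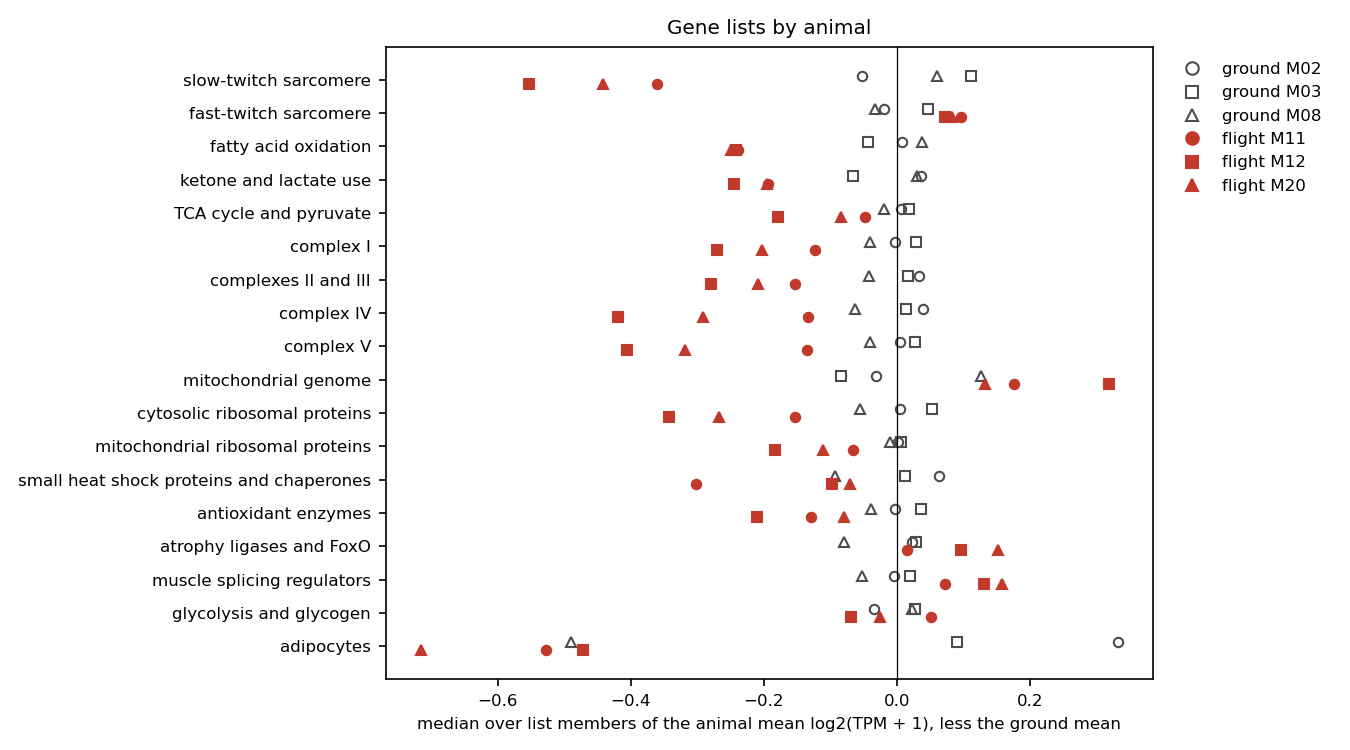
Median over the members of each gene list of an animal's mean log2(TPM + 1) less the ground mean, for ground mice (open grey) and flight mice (filled red), 1 point per animal. The flight mice lie below all ground mice for the slow-twitch, fatty acid oxidation, respiratory chain and ribosomal protein lists, and flight mouse M11 is nearest to ground in most of these.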

How the data were processed

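Poly(A) RNA of 12 muscles from 6 mice was sequenced as stranded single-end libraries. Per the labels and the study's methods, the authors used STAR 2.7.1a, kallisto 0.46.0 and DESeq2 1.26.0 with mm10. The deposited TPM values per gene were used here; deposited tables of splicing events were not used. TPM holds no read counts, so no depth was computed from the values; the study's methods describe 1 ground quadriceps library as shallower than the rest. Each animal's log2(TPM + 1) was averaged over its gastrocnemius and quadriceps, genes over 5 TPM in at least 1 of 12 libraries were kept, and flight was compared with ground by limma 3.58.1 in R 4.3.3 with a mean-variance trend and Benjamini-Hochberg adjustment. Calls needed more than 1.5-fold and an adjusted p under 0.05. Fold changes on this scale understate changes of low genes. The quadriceps minus gastrocnemius difference per animal was tested the same way. The share of a gene's 31-base words found in other genes came from GENCODE transcripts on GRCm38. The text names the called genes, the genes next in order and the leading members of each list. Members and lists were chosen with earlier results of these data known. The scripts were tested on simulated data. The 2 muscles of a mouse are paired by the labels, and their deviations from the group means correlated at -0.12 to 0.33. Muscles of different mice of the same condition correlated at -0.32 to 0.18, so the ranges overlap and the pairing rests on the labels. Alternatives covered the pseudocount, filter, scaling, averaging, variance trend, replicate block and each animal left out.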

Additional observations from a re-analysis of the deposited data

How the results depend on the processing

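The count of 13 called genes was 13 with a pseudocount of 0.5, all of them the same genes. With log2 of the mean TPM it was 13, of which 11 were the same genes. Median-ratio rescaling gave a count of 32, and rescaling without the mitochondrial genome 1 of 30. The count was 23 with a pseudocount of 2 and 21 with a filter on mean TPM over 5. It was 0 without a filter on low values (2770 genes at an unadjusted p under 0.05 by limma) and 0 without the variance trend (1771). With the animal as a replicate block it was 73, and 62 when the quadriceps of ground mouse M08 was also left out. Leaving out 1 animal gave 0 to 134 calls. Summing near-identical genes gave 6 calls and keeping only genes with under 20% shared 31-base words gave 2, both chosen after seeing the data. Each of the 13 called genes was called in 8 to 11 of its 16 to 18 alternatives. With 1 of the 6 animals left out, each was called in 1 or 2 of the fits. The 1928 values of single genes under these alternatives are mostly of genes that were not called, and only the 13 could lose a call. Of the 1928, 1764 kept their direction and side of the threshold, 97 lost the call, 61 gained it and 6 changed sign. Those were Ckm at 0.0011 after rescaling without the mitochondrial genome, Myh7 at -0.037 with log2 of the mean TPM, and 4 values with 1 animal left out, where Myh7 ran from -0.20 to 0.14 (below 0 without ground mouse M02 or flight mouse M20), Tnnt1 from -0.30 to 0.014 (above 0 without ground mouse M08) and Tpm3 from -0.052 to 0.25 (below 0 without ground mouse M02). The cause was not tested.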
